A study of Mus musculus with 19 samples.

Results

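Native RNA from mouse neural progenitor cells was read on nanopore devices in Mettl14 wild type (WT) and Mettl14 knockout (KO), with 2 replicates per genotype. These 4 samples, of 19 in the series, were chosen by their library type, and each pair of replicates shares 1 StringTie assembly. The cells were isolated from embryonic cortices of WT and conditional knockout mice and kept in a medium with 20 ng/ml of each of the growth factors FGF2 and EGF, which all groups share. The driver of the conditional deletion, the age of the embryos and whether the replicates were separate cultures are not given in the sources. The header of the KO assembly names its alignment "m6a-KD", while the label says knockout. Since 1 pooled assembly stands for each genotype, native values carry no replicate error and no test was made on them. A replicated comparison came from 4 WT and 4 KO short-read libraries that were made from separate bands of each sample, called ladder libraries here, and a second long-read comparison from the direct cDNA assemblies, also pooled from 2 replicates per genotype.

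In native RNA sequencing the RNA strand itself passes the pore from its poly(A) tail, so a read starts at the 3′ end and is often cut short towards the 5′ end. Mettl14 is the RNA-binding partner of the methyltransferase Mettl3. Together with Wtap, Virma, Zc3h13, Cbll1 and an Rbm15 protein they write N6-methyladenosine (m6A) into mRNA, mostly near stop codons and in long exons. YTH proteins read the mark, and many marked mRNAs decay faster. In cortical progenitors m6A is known for pacing the cell cycle and the turnover of transcripts of lineage genes.

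The WT assembly held 20979 transcripts and the KO assembly 19095, of which 17137 and 15152 had introns and lay outside the mitochondrial genome. StringTie gives TPM, a length-corrected share of all assembled RNA. One unit of read coverage was worth 0.978 TPM in WT and 1.19 TPM in KO, so 10 TPM stood for a coverage of 10.2 and 8.38. Coverage times length came to 1688 megabases in WT and 1367 in KO, and the median multi-exon transcript measured 2071 and 1841 bases. KO therefore had fewer bases and shorter assembled transcripts, and the part of this in the results below was not tested. Each multi-exon transcript gave its TPM to the annotated gene with which it shared most exact introns, which covered 10419 genes in WT and 9587 in KO. The WT ladder libraries held 103752444 to 126921887 estimated counts each, and those of KO 104899560 to 118197946.

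Several genes of neural progenitors were found in RNA of both genotypes. Others, such as Hes5 and Nr2e1, fell to a low level or a listed 0 in native KO and are given below. Fabp7, a fatty acid binding protein of radial glia, stood at 10092 TPM in WT and 3381 TPM in KO, and vimentin (Vim) at 1576 and 1285 TPM. The progenitor factor Sox2 has no intron, and its single-exon transcripts stood at 515 and 308 TPM. Of 12 microglial markers 11 were listed at 0 in both assemblies, as were 9 of 10 markers of meningeal fibroblasts and 9 of 12 of endothelial and mural cells. Fabp7 stood at 6.23 and 258 TPM in direct cDNA, opposite to native RNA. The Y-linked genes also went opposite ways between kinds of library. Eif2s3y stood at 29.6 TPM in native WT and 7.87 TPM in native KO, but at 0.0269 ± 0.0202 CPM (library-scaled counts, SD, n = 4) in WT and 6.90 ± 0.480 CPM in KO ladder libraries. Ddx3y followed with 15.2 and 4.64 TPM against 0.0129 ± 0.0150 and 4.39 ± 0.632 CPM. Native and ladder samples of the same genotype label thus differed in Y-linked RNA. The 2 ladder groups also differed from each other, as the ladder test called 4 of 5 sex-linked genes higher and 1 lower. The lower gene was the X-linked Xist, which fell from 173 ± 31.4 to 55.9 ± 11.5 CPM (edgeR adjusted p = 1.1e-05). Genotype and sex-linked RNA therefore cannot be told apart in the ladder tests. The part of either difference in any gene below was not tested.

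Mettl14 itself (chr3:123368297-123386108, GRCm38, minus strand) differed in structure in native RNA, and in level past the 2-fold line in the ladder libraries only. Its native level was 19.8 TPM in WT and 13.7 TPM in KO, a log2 difference of -0.50 on the log2(TPM + 1) scale used throughout for native RNA. The single WT transcript held all 11 annotated exons. None of the 3 KO transcripts held exon 7, 8 or 9. One, at 2.61 TPM, ran from exon 6 into exon 10 and kept the intron between exons 10 and 11. The other two, at 7.74 and 3.36 TPM, left the gene after exon 4 or exon 5 and ended in a 517-base exon 44766 bases past the gene's annotated end (chr3:123323015-123323531), where the annotation has no exon on this strand. In direct cDNA none of 4 KO transcripts held exons 7 to 9 either, and 0.713 of 1.68 TPM ended in the same distal exon. Ladder levels of Mettl14 were 28.6, 23.2, 32.6 and 31.6 CPM in WT and 7.02, 9.25, 7.59 and 7.92 CPM in KO. The genotypes did not overlap there (log2 fold change -1.87 ± 0.13 SE, edgeR quasi-likelihood test, adjusted p = 5.3e-07). Direct cDNA gave 1.68 TPM in each genotype. Ladder counts are summed over annotated transcripts and, unlike TPM, are not corrected for length. In native KO, 11.1 of 13.7 TPM lay in the transcripts with the distal exon, which is not annotated. The part of this in the ladder difference was not tested.

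The junctions that separate the genotypes are shown as the last 30 bases of exon 6 in lower case and the first 30 bases of the next exon in capitals, both coding, from GENCODE M21. The first was assembled in native WT RNA only, and the second in native KO RNA only.
Mettl14 exon 6 to exon 7: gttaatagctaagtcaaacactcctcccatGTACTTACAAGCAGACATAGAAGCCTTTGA
Mettl14 exon 6 to exon 10: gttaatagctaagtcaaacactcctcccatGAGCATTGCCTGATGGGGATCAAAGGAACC

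**Figure D1:**
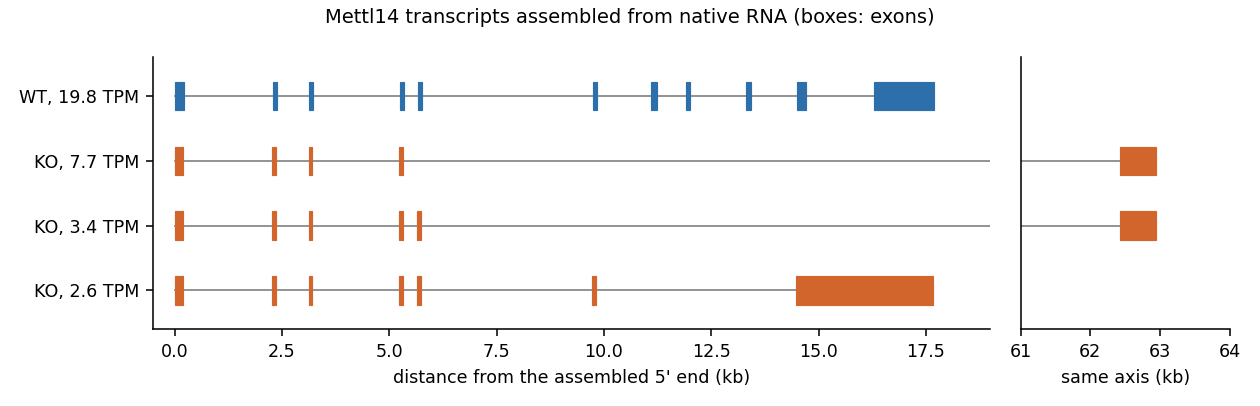
Exon structures of the 4 Mettl14 transcripts assembled from native RNA, by distance from each transcript's 5′ end in kilobases (the axis is broken between the panels), with blue for WT and orange for KO and the TPM at the left. The KO transcripts lack exons 7 to 9 of the WT transcript, and those at 7.74 and 3.36 TPM end in the distal exon.

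The other m6A genes differed in direction among themselves. A gene was called when its native level differed 2-fold or more and reached 10 TPM in either genotype, which held for 13.3% of 8275 genes as higher and for 14.9% as lower in KO. Of 9 writer genes 8 reached 10 TPM, and 2 were called higher and 1 lower. Rbm15, an adaptor that brings the complex to RNA, was listed at 0 in WT and stood at 25.04 TPM in KO. With single-exon transcripts that overlap its exons it stood at 8.60 and 89.2 TPM. Mettl16, a separate methyltransferase that acts on U6 and Mat2a RNA, went from 9.41 to 26.7 TPM. Both rose in the ladder libraries, where Rbm15 measured 11.7 ± 1.84 CPM in WT and 58.6 ± 1.43 CPM in KO (edgeR adjusted p = 6.9e-08) and Mettl16 22.2 ± 2.04 and 42.7 ± 2.55 CPM (edgeR adjusted p = 1.3e-05).

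Wtap, the subunit that holds the complex in nuclear speckles, went against the ladder libraries. It stood at 69.0 TPM in native WT and 16.6 TPM in native KO, but at 44.5, 47.4, 51.1 and 50.1 CPM in WT and 88.2, 101, 97.1 and 91.2 CPM in KO ladder libraries. There the 4 KO values all lay above the 4 WT values (log2 fold change 0.97, edgeR adjusted p = 7.1e-06), and direct cDNA gave 3.04 and 4.53 TPM. Mettl3 stood at 24.5 and 15.6 TPM, and in the ladder libraries at 25.7 ± 2.39 and 21.3 ± 0.972 CPM. Its edgeR adjusted p of 0.036 became 0.065 to 0.12 when WT replicate 3 or 4 or KO replicate 1, 2 or 4 was left out. Virma stood at 20.4 and 27.5 TPM, Zc3h13 at 9.85 and 13.9 TPM and Cbll1 at 16.3 and 17.5 TPM, none of them past 2-fold. All 3 were higher in the ladder libraries (edgeR adjusted p = 0.032, 0.0088 and 0.015), but Virma had 0.064 to 0.095 without WT replicate 3 or 4 or KO replicate 1 or 2, and Zc3h13 0.052 without the filter on low counts. Rbm15b, a paralog of Rbm15, had 23.5 and 25.9 TPM in overlapping transcripts only, and rose in the ladder libraries from 35.0 ± 10.5 to 128 ± 13.1 CPM (edgeR adjusted p = 1.5e-05). Of the 9 writers 7 were higher and 2, Mettl14 and Mettl3, lower by the ladder test.

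Among 14 readers and erasers 12 reached 10 TPM, with 2 higher and 1 lower in KO, against 13.3% and 14.9% of all genes. These counts are too small to set the list apart from all genes. The higher genes were a pair of cytoplasmic readers that speed mRNA decay. Ythdf1 went from 44.8 to 143 TPM, and Ythdf2 from 38.4 to 141 TPM. Ladder levels of Ythdf2 were 52.6, 48.0, 51.1 and 52.8 CPM in WT and 118, 129, 144 and 110 CPM in KO. Both rose there (edgeR adjusted p = 1.1e-05 for Ythdf1 and 1.8e-06 for Ythdf2). Igf2bp3, a reader that stabilises mRNA, went from 80.2 to 38.8 TPM and fell in the ladder libraries from 52.4 ± 8.89 to 28.1 ± 2.99 CPM (edgeR adjusted p = 0.00022). Its native log2 difference of -1.03 lay just past the 2-fold line. The third YTHDF reader, Ythdf3, stood at 43.7 and 54.5 TPM.

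Over all genes, 1099 were called higher and 1235 lower in native KO, with a median log2 difference of -0.03. A level of 0 was common among the calls. Of the 1099 higher genes 117 were listed at 0 in WT, and of the 1235 lower genes 361 were listed at 0 in KO. Of these, 84 and 272 had a transcript in the same assembly that overlapped their exons on the same strand without holding an annotated intron. With such transcripts counted, 1015 and 969 of the calls held. Most genes at 0 were found in other libraries of the same genotype. Of the 117 and 361, direct cDNA listed 98 and 292 above 0. In every ladder library of that genotype 106 and 339 reached 1 CPM. A gene at 0 is therefore called listed at 0 here, and no fold is given against it.

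The ladder libraries are separate samples from the native ones. A larger share of the higher than of the lower native calls had the same direction there, and the difference between these shares was not tested. Of 1096 higher calls tested there, 718 (65.5%) were also higher in KO and 67 (6.11%) lower. Of 1230 lower calls, 524 (42.6%) were also lower and 213 (17.3%) higher. Over all 18672 genes of that test 26.4% were higher and 27.2% lower in KO, and over the 8256 genes that native RNA also tested 30.7% were higher and 20.5% lower. At 50 TPM or more in either genotype, 337 of 443 higher calls and 154 of 361 lower calls had the same direction. In direct cDNA 725 of 975 higher calls and 437 of 1033 lower calls were 2-fold or more in the same direction, where 21.6% of all 7610 genes tested were 2-fold or more higher and 10.2% lower. Direct cDNA thus leaned to higher levels in KO over all genes. Across genes, native log2 differences had a Pearson correlation of 0.37 with ladder fold changes (8256 genes) and 0.53 with cDNA differences (7610 genes). Genes are not independent replicates, and native RNA and cDNA share the read technology and assembler.

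**Figure D2:**
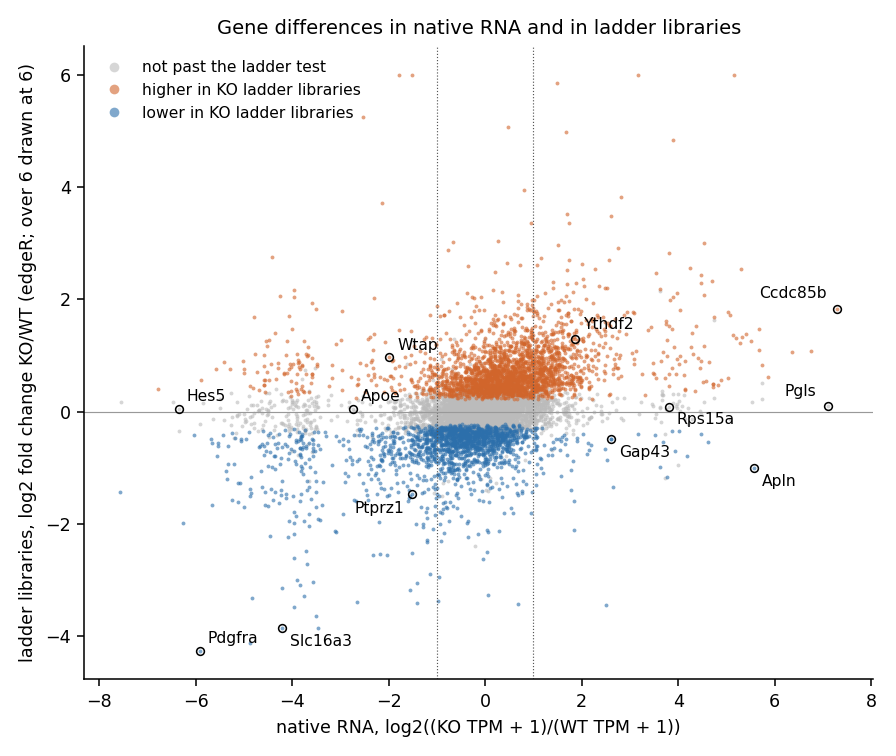
Each point is a gene, with the native log2((KO TPM + 1)/(WT TPM + 1)) on the x axis and the ladder log2 fold change on the y axis. Dotted lines mark 2-fold, colours mark the edgeR call at an adjusted p under 0.05, and points over 6 are drawn at 6. Pdgfra and Slc16a3 lie low in both, Hes5, Apoe and Pgls lie near 0 in the ladder libraries only, and Wtap and Apln have opposite signs.

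The 10 largest falls all lay below 5 TPM in native KO, and 9 of them were listed at 0. Pdgfra, the growth factor receptor that marks oligodendrocyte precursors, went from 59.3 TPM to a listed 0. It fell in the ladder libraries from 110, 117, 94.1 and 78.5 CPM in WT to 5.94, 5.09, 4.66 and 5.24 CPM in KO (log2 fold change -4.26 ± 0.16 SE, edgeR adjusted p = 4.9e-09). Enpp2, the lysophosphatidic acid producing enzyme autotaxin, went from 75.3 TPM to 0. Nupr1, a small stress-induced nuclear protein, went from 188 TPM to 0. Both fell in the ladder libraries, Enpp2 from 46.4 ± 8.55 to 11.7 ± 1.48 CPM (edgeR adjusted p = 8e-07) and Nupr1 from 40.5 ± 7.10 to 15.0 ± 2.98 CPM (edgeR adjusted p = 1.8e-05).

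Most of the other large native falls were not matched there. Hes5, a Notch target that keeps progenitors undifferentiated, stood at 469 and 4.74 TPM in native RNA, and at 40.5 and 0.484 TPM in direct cDNA. In the ladder libraries it stood at 36.2, 39.5, 32.4 and 34.6 CPM in WT and 35.9, 36.2, 31.7 and 43.1 CPM in KO, with overlapping values (log2 fold change 0.04 ± 0.12 SE, edgeR adjusted p = 0.77). Mmd2 went from 187 TPM to 0, and stood at 117 ± 12.4 and 132 ± 10.2 CPM in the ladder libraries (edgeR adjusted p = 0.22). Sox9, a gliogenic transcription factor, went from 87.1 TPM to 0, with a single-exon KO transcript at 29.3 TPM, and ladder levels of 89.6 ± 12.7 and 101 ± 11.5 CPM (edgeR adjusted p = 0.28). Slc6a11, a GABA transporter of astrocytes, stood at 80.7 TPM against 0, or 26.2 TPM with overlapping transcripts. Lrrn1 stood at 109 TPM against 0, or 20.0 TPM, and Trp53inp2 at 64.2 TPM against 0, or 25.2 TPM. The ladder tests of these 3 were unstable. Slc6a11 had an edgeR adjusted p of 0.07, and of 0.039 to 0.049 without WT replicate 1 or 3 or KO replicate 3. Lrrn1 was higher in KO at an edgeR adjusted p of 0.046, and at 0.051 to 0.11 without WT replicate 3 or 4 or KO replicate 1, 2 or 3. Trp53inp2 was lower at 0.02 in edgeR, and at 0.053 and 0.054 without WT or KO replicate 4. Zfp664 stood at 59.1 TPM against 0, but at 41.9 TPM with overlapping transcripts, which is within 2-fold.

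The 10 largest rises were listed at 0 in native WT without exception, so no fold is given. Ccdc85b, a coiled-coil protein, stood at 156 TPM in KO. With overlapping single-exon transcripts it stood at 69.6 TPM in WT and 243 TPM in KO, and it rose in the ladder libraries from 19.3, 14.8, 19.4 and 16.1 CPM to 61.5, 53.7, 46.8 and 84.6 CPM (edgeR adjusted p = 6.5e-06). The nuclear pore protein Nup62 stood at 81.2 TPM, the dehydrogenase Dhrs13 at 107 TPM, the MAP kinase phosphatase Dusp4 at 52.4 TPM, the chondroitin synthase Chsy1 at 50.2 TPM and Tssc4 at 49.9 TPM. All 5 rose in the ladder libraries, with edgeR log2 fold changes of 1.07, 1.07, 0.82, 1.47 and 1.09. With overlapping transcripts WT had 14.3 TPM of Dusp4 and 22.6 TPM of Chsy1. Srsf4, an SR protein, stood at 56.7 TPM, but at 37.8 and 56.7 TPM with overlapping transcripts, and rose in the ladder libraries (edgeR adjusted p = 0.00063).

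The other 3 rises were not matched in the ladder libraries. Pgls, an enzyme of the pentose phosphate pathway, was listed at 0 in native and cDNA WT and at 136 and 29.9 TPM in KO. Its ladder levels were 232, 240, 251 and 238 CPM in WT and 249, 220, 204 and 357 CPM in KO (edgeR adjusted p = 0.62). Repin1 stood at 52.1 TPM in KO, with 90.1 ± 34.0 and 128 ± 14.7 CPM in the ladder libraries (edgeR adjusted p = 0.14). Apln, the apelin peptide precursor, stood at 46.8 TPM in native KO and fell in the ladder libraries from 77.0 ± 23.9 to 38.4 ± 4.57 CPM (edgeR adjusted p = 0.0022).

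Gene lists for the pathways and cell types of this culture were compared with the share of calls over all genes. In native RNA these shares were 13.3% higher and 14.9% lower. In the ladder libraries they were 30.7% and 20.5% of the genes that native RNA also tested. Genes of cholesterol synthesis, which build sterols from acetyl units, were mostly higher in native KO. All 15 reached 10 TPM, 8 were called higher and 1 lower, and the median log2 difference was 1.18 against -0.03 for all genes. Idi1, which makes the isoprenoid building block, went from 44.5 to 275 TPM, Msmo1 from 126 to 519 TPM and Fdps from 218 to 619 TPM. The list had a ladder median of -0.05, with 5 members higher and 1 lower. Idi1 fell there, from 161 ± 18.5 to 115 ± 14.5 CPM (edgeR adjusted p = 0.007).

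Of 22 cell cycle genes 6 were called higher and 1 lower, with a median of 0.69. Cyclin E1 (Ccne1), which drives entry into S phase, went from 13.6 to 78.7 TPM and rose in the ladder libraries from 20.2 ± 1.67 to 30.1 ± 1.39 CPM (edgeR adjusted p = 0.00038). E2f1, a transcription factor of the same step, was listed at 0 in WT and stood at 20.2 TPM in KO, and rose from 13.9 ± 2.20 to 27.1 ± 2.20 CPM (edgeR adjusted p = 6.8e-05). Cyclin D1 (Ccnd1), which acts earlier in G1, went from 67.5 to 198 TPM, but fell in the ladder libraries from 1341 ± 212 to 833 ± 90.4 CPM (edgeR adjusted p = 0.0016). The replication factor Pcna went from 295 to 608 TPM, with 226 and 207 CPM in the ladder libraries (edgeR adjusted p = 0.26). Cdkn1b, an inhibitor of cyclin E kinases, was the single lower call, at 90.3 and 42.9 TPM with 98.5 and 97.6 CPM in the ladder libraries (edgeR adjusted p = 0.94). The ladder test called 8 of the 22 higher and 5 lower, shares near those of all genes, with a median of 0.04.

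All 26 SR and hnRNP splicing factors reached 10 TPM, and 4 were called higher and none lower, a share of higher calls near that of all genes, with a median of 0.46. Srsf2, an SR protein that promotes exon inclusion, went from 207 to 849 TPM and rose in the ladder libraries from 95.9 ± 10.4 to 154 ± 7.11 CPM (edgeR adjusted p = 0.00025). Srsf3 went from 273 to 594 TPM and Srsf7 from 126 to 257 TPM, and neither passed the ladder test (edgeR adjusted p = 0.66 and 0.11). With overlapping transcripts, 3 of 26 were called and Srsf4 was not. The ladder test called 11 of the 26 higher and 2 lower.

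Of 20 genes of glycolysis and hypoxia that reached 10 TPM none was called higher and 6 lower, with a median of -0.81. Eno1 and Ldha, glycolytic enzymes, stood at 1273 and 1267 TPM and at 1232 and 1199 TPM, and the hexokinase Hk2 at 12.2 and 22.6 TPM. Slc16a3, a lactate exporter, went from 17.4 TPM to 0, and from 46.8, 30.4, 51.6 and 49.8 CPM to 2.83, 3.33, 3.27 and 2.91 CPM in the ladder libraries (edgeR adjusted p = 2e-08). The mitophagy receptor Bnip3 went from 126 to 56.2 TPM, the kinase Pgk1 from 1170 to 570 TPM and Vegfa from 83.3 to 40.3 TPM. Several of these lay close to 2-fold, with log2 differences of -1.15, -1.04 and -1.03. Their ladder differences were larger, with log2 fold changes of -2.89, -1.84 and -1.68. The ladder test called 21 of 22 members lower and none higher, with a median of -1.47. Nuclear genes of the respiratory chain and ATP synthase had a median of -0.51 in native RNA, with none of 26 called in either direction, and in the ladder libraries a median of -0.10 with 2 higher and 10 lower.

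**Figure D3:**
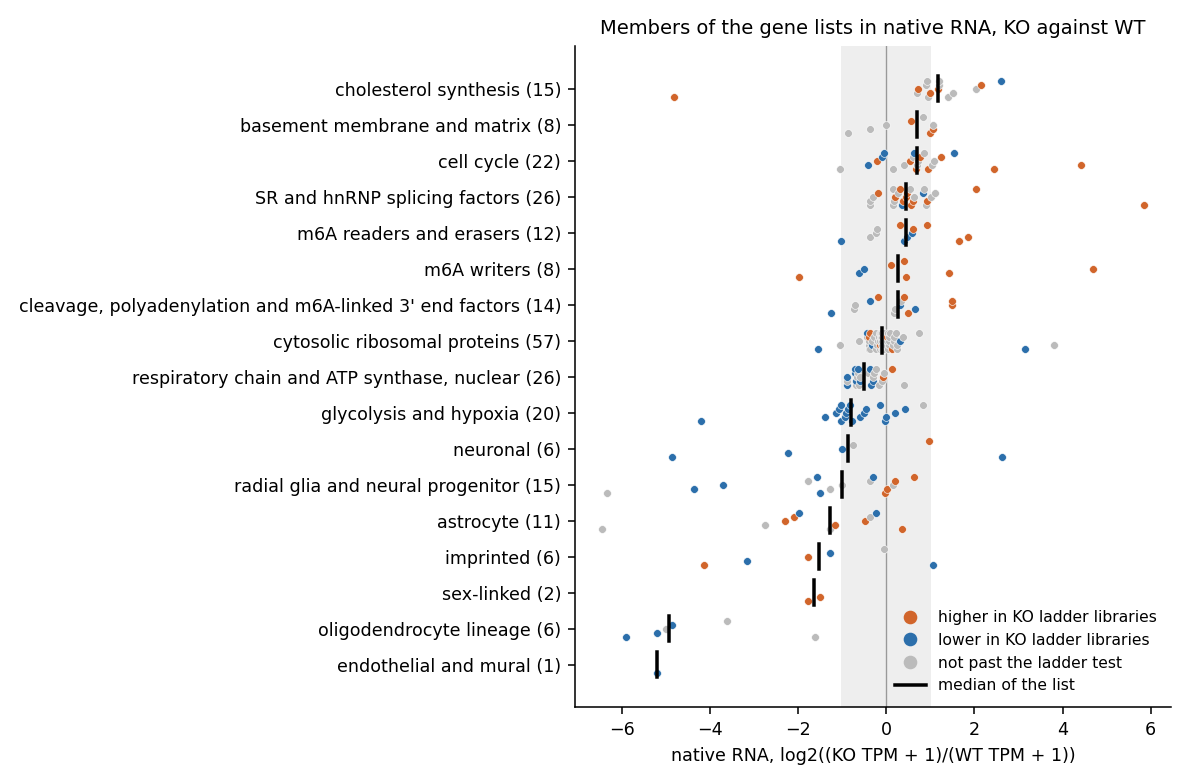
Each point is a list member at 10 TPM or more in either genotype (number in brackets), at its native log2((KO TPM + 1)/(WT TPM + 1)). Black bars are list medians, the grey band is under 2-fold, and colours give the ladder call. Cholesterol synthesis has the highest median, 1.18, while 7 of 11 astrocyte genes lie left of the band.

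All 6 oligodendrocyte lineage markers at 10 TPM or more were called lower, among them Pdgfra, above, and the chondroitin sulfate proteoglycan Cspg4, which went from 36.0 TPM to 0. Cspg4 fell in the ladder libraries from 142 ± 27.6 to 74.3 ± 7.29 CPM (edgeR adjusted p = 0.0002). Sox10, a master factor of the lineage, went from 28.3 TPM to 0 and fell in the ladder libraries from 16.2 ± 5.82 to 0.932 ± 0.106 CPM (edgeR adjusted p = 4e-07). The count rests partly on the intron rule. Olig2, a transcription factor with 1 intron, stood at 259 and 20.2 TPM by its intron, but at 259 and 406 TPM with the single-exon KO transcript. Olig1, which has no intron, was listed at 0 in WT and stood at 764 TPM in KO. Every WT ladder library held Olig1, with 910, 703, 1074 and 1069 CPM. The KO ladder mean was higher, 1579 ± 125 CPM (edgeR adjusted p = 0.0013). With overlapping transcripts 6 of 8 members were lower and 1 higher. The summed level of the list was then 554 TPM in WT and 1226 TPM in KO, of which Olig1 made up 0 and 764 TPM. The WT sum thus includes a native 0 for Olig1 that no WT ladder library shared. Olig2, the transcription factor Nkx2-2 (30.9 TPM against 0) and the myelin enzyme Cnp (108 and 34.4 TPM) did not pass the ladder test (edgeR adjusted p = 0.46, 0.81 and 0.45). The ladder test called 8 of 14 members lower and 2 higher.

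Astrocyte markers went apart. Of 11 at 10 TPM or more, 7 were called lower and none higher in native RNA, with a median of -1.28, while the ladder test called 10 of 16 higher and 2 lower, with a median of 0.56. Apolipoprotein E (Apoe) went from 674 to 99.5 TPM, against 4189, 4354, 3663 and 3890 CPM in WT and 4182, 3940, 3096 and 5352 CPM in KO ladder libraries, which overlapped (edgeR adjusted p = 0.84). Aldoc, a brain aldolase, went from 242 to 55.6 TPM, but its ladder level rose from 220 to 281 CPM (edgeR adjusted p = 0.007). The gap junction protein Gja1 stood at 44.6 and 57.0 TPM, and rose in the ladder libraries from 24.2 ± 4.19 to 106 ± 14.0 CPM (edgeR adjusted p = 5e-07). Aldh1l1, a folate enzyme, was lower in both, at 69.0 and 16.6 TPM in native RNA and 526 and 188 CPM in the ladder libraries (edgeR adjusted p = 4.5e-05).

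Radial glia and progenitor genes had 8 lower calls and none higher of 15, with a median of -1.02, and 5 higher and 5 lower of 19 in the ladder libraries. With overlapping transcripts 8 of 19 were lower and 1 higher, and the median was -0.37. The higher gene was nestin (Nes), an intermediate filament of progenitors, at 16.2 and 44.1 TPM, which rose in the ladder libraries from 194 ± 45.9 to 430 ± 106 CPM (edgeR adjusted p = 0.00061). Ptprz1, a receptor phosphatase of radial glia, went from 433 to 152 TPM and fell in the ladder libraries from 1202 ± 233 to 435 ± 89.2 CPM (edgeR adjusted p = 3.8e-05). The nuclear receptor Nr2e1 went from 19.5 TPM to 0 and fell from 16.5 ± 1.43 to 6.11 ± 0.716 CPM (edgeR adjusted p = 1.3e-06). Lhx2 and Emx2, cortical patterning factors, stood at 107 and 123 TPM and at 28.8 and 28.3 TPM, but rose in the ladder libraries from 36.8 to 205 and from 31.6 to 76.0 CPM (edgeR adjusted p = 4e-06 and 0.0001). In bulk RNA, fewer cells of a type and less RNA per cell cannot be told apart.

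Of 6 neuronal genes at 10 TPM or more 3 were lower and 1 higher. Neuron-specific tubulin Tubb3 went from 28.4 TPM to 0 and fell in the ladder libraries from 27.0 ± 1.46 to 10.4 ± 0.973 CPM (edgeR adjusted p = 6e-07). Elavl4, a neuronal RNA-binding protein, went from 21.9 to 3.86 TPM by its introns and from 21.9 to 23.4 TPM with overlapping transcripts. The growth cone protein Gap43 was higher, at 88.8 and 550 TPM in native RNA and at 5.28 and 54.9 TPM in cDNA, while it fell in the ladder libraries from 651 ± 32.8 to 463 ± 32.8 CPM (edgeR adjusted p = 0.0022). The ladder test called 14 of 18 neuronal genes lower and 2 higher.

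Among imprinted genes, expressed from 1 parental allele, 4 of 6 were called lower and 1 higher, with a median of -1.53. With overlapping transcripts 3 of 9 were lower and 2 higher, and the median was -0.05. By the ladder test 4 of 15 were higher and 7 lower. Grb10, an adaptor that dampens insulin signalling, went from 62.9 to 17.6 TPM, but rose in the ladder libraries from 0.989 ± 0.258 to 2.72 ± 0.178 CPM (edgeR adjusted p = 2.9e-05). Cdkn1c, a cell cycle inhibitor, went from 41.9 to 3.75 TPM and fell in the ladder libraries from 3.72 ± 0.632 to 1.92 ± 0.239 CPM (edgeR adjusted p = 0.00024). Mest went from 110 to 228 TPM but fell there, from 241 ± 42.1 to 152 ± 15.1 CPM (edgeR adjusted p = 0.0019). Igf2r went from 16.5 TPM to 0 by its introns, and from 16.5 to 20.7 TPM with overlapping transcripts. Basement membrane and matrix genes had 2 higher calls of 8 and none lower. Col4a1, a collagen of the basement membrane, went from 12.6 to 27.5 TPM and rose in the ladder libraries from 50.6 ± 2.86 to 211 ± 13.1 CPM (edgeR adjusted p = 3.7e-08).

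Factors that cleave and polyadenylate mRNA had 2 higher calls and 1 lower of 14, a share near that of all genes. The kinase Clp1 went from 16.6 to 48.5 TPM and the cleavage stimulation factor Cstf1 from 15.7 to 46.0 TPM, and both rose in the ladder libraries (edgeR adjusted p = 6.2e-06 and 0.00073). Fip1l1, a subunit of the polyadenylation complex, went from 26.3 to 10.3 TPM and fell there (edgeR adjusted p = 0.00079).

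The 57 cytosolic ribosomal protein genes were close to even, with a median of -0.09, 2 higher and 2 lower calls. Rps15a went from 231 to 3228 TPM and Rpl3 from 96.4 to 867 TPM, while Rpl34 went from 167 to 56.1 TPM and Rpl11 from 560 to 269 TPM. The Rps15a transcript with the same introns in both had a last exon of 6666 bases in WT (190 TPM) and 158 bases in KO (3063 TPM). TPM is corrected for length, and the part of this in the Rps15a rise was not tested. Rps15a stood at 885 ± 124 and 939 ± 119 CPM in the ladder libraries (edgeR adjusted p = 0.62) and Rpl11 at 1004 ± 203 and 1114 ± 223 CPM (edgeR adjusted p = 0.5). Rpl3 fell there, against its native direction, from 15.6 ± 0.669 to 11.8 ± 0.862 CPM (edgeR adjusted p = 0.0035, and 0.053 without the filter on low counts). Rpl34 fell from 296 ± 49.7 to 32.7 ± 5.00 CPM (edgeR adjusted p = 4.3e-08). Ribosomal protein genes have many near-identical copies in the genome, which can make their short-read counts uncertain, and this was not tested.

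The structures of transcripts were compared by intron chain, the ordered list of all intron ends of a transcript. Of 17137 WT and 15152 KO chains, 8511 were in both, which is 49.7% of the WT and 56.2% of the KO chains but 88.6% of the WT and 90.7% of the KO TPM of multi-exon transcripts. Chains that match an annotated transcript made up 55.1% of the WT chains and 88.9% of their TPM, and 53.9% and 88.2% in KO. Of the shared chains 6857 (80.6%) were annotated. Chains that hold only an unbroken part of an annotated chain were 22.0% of the WT and 25.3% of the KO chains, with 5.78% and 7.46% of the TPM. The FLAIR assemblies shared 94.03% of WT chains, but 12342 of their transcript names are read names that occur in both genotypes, so that these 2 sets were not made independently.

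The leading chain, the one with most TPM in its gene, was often a part of the WT leading chain in KO. Of 6434 genes with 10 TPM or more in both genotypes, 1851 (28.8%) had a leading chain whose share of the gene's TPM moved by 25 percentage points or more. In 896 of them the KO leading chain was an unbroken part of the WT leading chain, and in 260 it was the reverse. In another 366 the 2 chains differed in other ways. The leading chain was the same in 306, with only its share moved, and in 23 the intron ends differed by 10 bases or less. With partial chains joined to the longer chain that contains them, 768 genes had moved, of which 739 were among the 1851. At 50 TPM or more in both genotypes 175 of 2186 genes had moved. A change of 100 points, the most there can be, was found in 389 of 4472 genes at 20 TPM or more in both. The 8 of these with most TPM in their lower genotype all had a KO chain that is part of the WT chain. Tpt1, an abundant growth-related protein, had 5 introns in its WT chain (4841 TPM) and 4 in its KO chain (989 TPM). Scp2, a sterol carrier, had 15 and 4, the G protein-coupled receptor Adgrg1 13 and 3, Dpysl3 13 and 7, Zeb1 6 and 2, Ddb1 26 and 24, Sulf2 20 and 18 and Acly 19 and 18.

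In the ladder libraries 798 of these chains could be followed as a share of their gene's counts. Exact two-sided permutation tests, which cannot go below p = 0.0286 with 4 against 4, gave none past an adjusted p of 0.05. The smallest adjusted p was 0.0905, and 143 in the native and 109 in the opposite direction were at an unadjusted p under 0.05. By limma on log2 odds of the share, 127 moved in the native direction and 92 in the opposite, 27.4% in all against 26.7% of all 4717 chains tested, a share near the background.

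**Figure D4:**
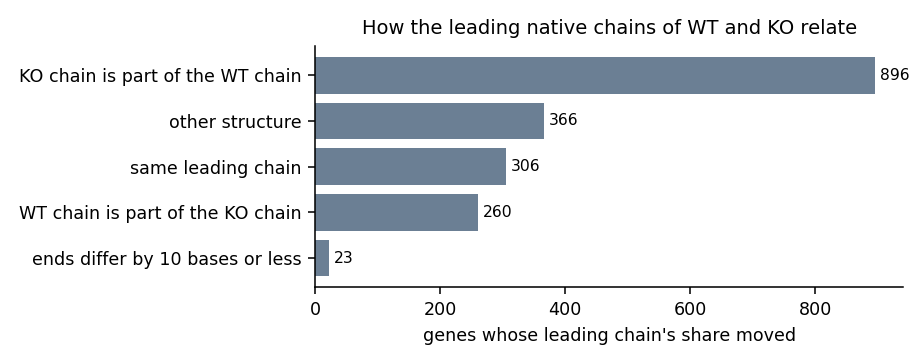
Number of genes, on the x axis, by how the leading native chains of the genotypes relate, among the 1851 genes whose leading chain's share moved by 25 points or more. The bar of 896 genes in which the KO chain is part of the WT chain is longer than the reverse bar of 260 genes.

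Splice site choice was compared where junctions share 1 splice site. Of 69163 sites at 20 TPM or more in both genotypes, 11811 had a choice of junctions. At 557 sites in 356 genes, 0.805% of all and 4.72% of those with a choice, a junction's share moved by 25 points or more. In 354 of the 557 the share was 0 or 100% in 1 genotype. Direct cDNA held 554 of the 557 moved sites, with 249 moved by 10 points or more the same way, 83 the opposite way and 222 by less. Of 473 that could be followed in the ladder libraries, none passed the exact permutation test after adjustment (smallest adjusted p = 0.0795), with 111 in the native and 59 in the opposite direction at an unadjusted p under 0.05. By limma 87 moved in the native and 42 in the opposite direction, 27.3% in all against 20.2% of 4510 sites.

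The 12 sites named were those with the largest change that native RNA and cDNA share, so cDNA gives no further support to them. The largest was in Tcf3, which encodes the basic helix-loop-helix E proteins E12 and E47 through a choice between 2 exons. The junction to the nearer exon (chr10:80410398-80410624) took 4.34% of the site in native WT and 100% in native KO, and 1.41% and 95.1% in cDNA. In the ladder libraries it took 52.2, 50.5, 53.7 and 54.3% in WT and 65.3, 64.6, 64.1 and 65.4% in KO. The groups did not overlap there, and the difference went the same way but was far smaller (exact permutation p = 0.0286, adjusted p = 0.0795, limma adjusted p = 0.005). The 2 exons, whole and coding, are shown because they are the alternatives at this site, and they share 27 words of 12 bases.
Tcf3 exon of the KO assembly: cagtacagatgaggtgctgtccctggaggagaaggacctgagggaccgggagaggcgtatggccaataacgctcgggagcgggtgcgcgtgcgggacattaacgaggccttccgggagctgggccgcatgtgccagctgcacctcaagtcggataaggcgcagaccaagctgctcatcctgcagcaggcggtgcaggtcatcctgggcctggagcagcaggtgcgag
Tcf3 exon of the WT assembly: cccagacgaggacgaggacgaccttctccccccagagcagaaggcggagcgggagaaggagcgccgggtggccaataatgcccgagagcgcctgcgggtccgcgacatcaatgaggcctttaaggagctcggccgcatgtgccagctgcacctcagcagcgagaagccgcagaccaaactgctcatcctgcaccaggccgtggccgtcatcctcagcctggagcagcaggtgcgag

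Sept6, a septin of the cytoskeleton, and Arhgef40, a guanine nucleotide exchange factor, shifted most among the 12 in the ladder libraries. The Sept6 junction to the farther of 2 acceptors went from 43.5 to 91.7% in native RNA, and from 46.9, 52.2, 53.8 and 50.3% to 80.7, 82.9, 86.3 and 86.8% in the ladder libraries. In Arhgef40 the nearer of 2 acceptors went from 0 to 48.4% in native RNA, and from 29.1, 33.6, 38.6 and 38.3% to 55.4, 61.6, 60.7 and 62.1%. Both had no overlap between genotypes (exact permutation p = 0.0286 and adjusted p = 0.0795 for each, limma adjusted p = 0.00064 and 0.0023). Ccnl1, a cyclin that binds splicing factors, used the farther of 2 acceptors in 30.7% of native WT and 80.2% of native KO junctions, and in 40.3 ± 5.999% and 54.4 ± 6.08% of the ladder counts (exact permutation p = 0.0286, adjusted p = 0.0795, limma adjusted p = 0.051).

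In Mapre2 the native share went from 67.9 to 0% and the ladder share the other way, from 57.6 ± 3.58 to 68.1 ± 1.06% (exact permutation p = 0.0286, adjusted p = 0.0795, limma adjusted p = 0.018). In Eloc the native share went from 74.7 to 0%, with 53.7 ± 1.62 and 54.3 ± 4.81% in the ladder libraries (exact permutation p = 0.857). The exon of 54 bases in Atxn2 (chr5:121806222-121806275), an RNA-binding protein, was joined in 100% of native WT and 0% of native KO junctions, against 87.6 ± 7.94 and 94.9 ± 3.37% in the ladder libraries (exact permutation p = 0.143). Gapvd1, an endosomal exchange factor, used the longer form of an exon (chr2:34717253-34717382) in 39.4% of native WT and all KO junctions, against 57.5 ± 7.22 and 59.6 ± 0.593% in the ladder libraries (exact permutation p = 0.971). Pbrm1, a chromatin remodelling subunit, left out an exon of 156 bases (chr14:31113849-31114004) in 0 and 53.9% of native junctions. In the ladder libraries that share was 5.9e-08% on average in WT and 2.56, 2.25, 7.13 and 0.748% in KO, a small difference in the native direction with no overlap (exact permutation p = 0.0286, adjusted p = 0.0795, limma adjusted p = 0.00063). Ptprz1 went from 68.1 to 0% in native RNA with 100% in 7 of 8 ladder libraries and 99.99% in KO replicate 3 (exact permutation p = 1). The Ddx5 and Acot2 sites had no ladder share.

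The coding exons whose use these shares describe in Atxn2, Pbrm1 and Gapvd1 are printed whole. Capitals mark the 63 bases that the shorter Gapvd1 form lacks.
Atxn2 exon: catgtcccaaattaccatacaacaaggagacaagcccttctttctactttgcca
Pbrm1 exon: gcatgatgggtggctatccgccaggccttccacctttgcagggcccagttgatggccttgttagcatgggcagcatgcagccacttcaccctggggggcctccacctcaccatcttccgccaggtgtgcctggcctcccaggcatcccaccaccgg
Gapvd1 exon, longer form: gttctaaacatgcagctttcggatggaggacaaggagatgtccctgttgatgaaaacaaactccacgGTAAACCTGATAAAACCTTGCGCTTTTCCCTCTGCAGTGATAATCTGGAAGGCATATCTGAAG

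**Figure D5:**
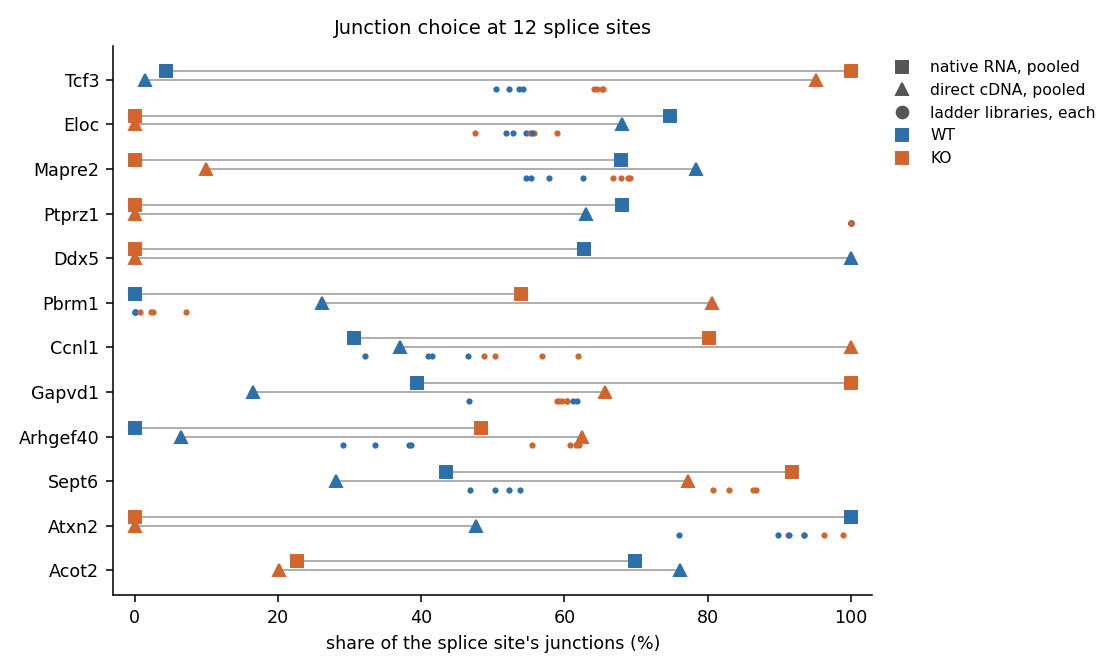
Share of 1 junction among those that use the same splice site, in percent on the x axis, for 12 genes on the y axis. Squares are native RNA and triangles direct cDNA, each pooled, dots are single ladder libraries, blue is WT and orange is KO. Tcf3, Sept6, Arhgef40 and Ccnl1 separate the genotypes in the same order in all 3 kinds of library, while Mapre2 has its ladder dots in the opposite order.

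Ends were compared for the 8439 shared chains assigned to a gene. The 3′ ends lay within 10 bases of each other in 78.4% of chains and the 5′ ends in 42.8%. The 3′ end reached 100 bases or more further in KO for 357 chains (4.23%) and stopped that much earlier for 538 (6.38%). At the 5′ end 346 chains (4.10%) were longer and 574 (6.80%) shorter in KO. Of the moved 3′ ends, 639 belonged to chains that cDNA also shared, of which 184 moved 100 bases or more the same way, 135 the opposite way and 320 by less.

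The largest 3′ losses were in Rps15a, Ntrk2, Agpat3 and Qk. In the neurotrophin receptor Ntrk2 a chain of 12 introns had a last exon of 5010 bases in WT and 430 bases in KO. This was a loss of 4580 bases that cDNA matched with 4579. The Ntrk2 ends lay 5 bases from an annotated end in WT and 668 bases in KO. The last exon of Agpat3, a lipid acyltransferase, measured 4607 and 180 bases, with 2382 bases lost in cDNA. Both Agpat3 ends lay within 15 bases of an annotated end. Qk, an RNA-binding protein of glia, had 7053 and 3081 bases, with ends 22 and 0 bases from annotated ones and 5710 bases lost in cDNA. Rps15a lost 6508 bases from an end that lay 1844 bases past any annotated one in WT.

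The largest gains were in Spry1, Ppm1a, Ednrb and Pclaf. Ppm1a, a phosphatase, had a last exon of 851 bases in WT and 6111 bases in KO, each within 3 bases of an annotated end, but cDNA moved the opposite way by 4884 bases. The endothelin receptor Ednrb had 2590 and 7579 bases, with 1900 bases gained in cDNA, and its KO end lay 5003 bases from any annotated end. Pclaf, a Pcna-binding protein, had 570 and 4192 bases, with 817 gained in cDNA, and ends 1139 and 2483 bases from annotated ones. For the growth factor antagonist Spry1 the KO assembly gave a last exon of 72674 bases that ends 70630 bases past its annotated end, against 2045 bases in WT and a gain of 1457 bases in cDNA. The levels of these 8 genes in the ladder libraries do not bear on their ends.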

How the data were processed

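The deposited native and direct cDNA assemblies come from StringTie 2.0, run by the authors for long reads per the file headers. Each file pools 2 replicates and they hold TPM and coverage as StringTie wrote them. minimap2 2.17, the build GRCm38 and, for short reads, kallisto are listed per the submitters' processing notes. FLAIR assemblies carry no level. The deposited estimated counts of the ladder libraries are the authors' kallisto values per transcript, per the file headers. No source used here states how the bands were combined.

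Each multi-exon transcript was given to the GENCODE M21 gene sharing most exact introns, mitochondrial transcripts were left out, and TPM was summed per gene. A call needs 2-fold on log2(TPM + 1) and 10 TPM in either genotype. Ladder counts were summed per gene, rounded and tested with edgeR 4.0.16 (TMM, filterByExpr, robust quasi-likelihood, Benjamini-Hochberg, threshold 0.05), and CPM are after TMM. Shares were tested by exact two-sided permutation with Benjamini-Hochberg adjustment and, added later, by limma 3.58.1 on log2 odds. DESeq2 1.42.0 was an alternative. Labels name no separate cultures, so p-values measure the spread between these libraries, which may be technical.

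Members, lists and the naming rule were chosen with earlier results of these data known. The rule took the m6A writers, 10 rises and 10 falls at 20 TPM or more, up to 2 of each direction per list, 8 leading chains (ties by TPM) and 4 ends of each direction. The splice site comparison and its 12 sites were added after the data were seen, as were genes named beside the rule (Aldoc, Aldh1l1, Bnip3, Ccnd1, Cnp, Emx2, Eno1, Fabp7, Gja1, Grb10, Hk2, Ldha, Nes, Nkx2-2, Fdps, Lhx2, Msmo1, Olig1, Olig2, Pcna, Pgk1, Sox2, Sox10, Srsf3, Srsf7, Vegfa, Vim and Ythdf3). Some genes that the rule chose are not reported here.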

Additional observations from a re-analysis of the deposited data

Results flagged for a closer look

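In 14 of 172 groups of 4 ladder libraries, 1 library's CPM of a named gene stood further from the rest than Dixon's 95% limit allows, which chance gives in about 1 of 20 groups. In WT, replicate 2 was low for Adgrg1 (188.7 CPM, others 277 to 290) and Apln (41.5 CPM, others 83.7 to 91.5). WT replicate 3 was low for Agpat3 (259.0 CPM, others 283 to 287) and high for Atxn2 (8.60 CPM, others 5.66 to 5.96), Rps15a (1071 CPM, others 815 to 832) and Tubb3 (29.2 CPM, others 26.2 to 26.4). WT replicate 4 was high for Dusp4 (41.2 CPM, others 30.3 to 31.4) and Sulf2 (456 CPM, others 268 to 298), and WT replicate 1 low for Rpl3 (14.6 CPM, the others at 15.9). In KO, replicate 1 was high for Cspg4 (85.1 CPM, others 69.9 to 71.2) and low for Srsf2 (143 CPM, others 156 to 158). KO replicate 3 was high for Dhrs13 (56.6 CPM, others 51.1 to 51.6) and Lamb1 (28.9 CPM, others 25.1 to 25.5), and KO replicate 4 for Eloc (82.6 CPM, others 71.2 to 72.7).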

How the results depend on the processing

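Native RNA has 1 pooled assembly per genotype, so every native count depends on thresholds and none has replicate error. Of 1099 higher and 1235 lower genes, 445 and 361 were left at 50 TPM or more and 281 and 567 at 4-fold, while 1 TPM or no minimum gave 2351 lower genes and direct cDNA 354 higher and 105 lower. Calls with the same and the opposite direction in the ladder libraries numbered 491 and 69 at 50 TPM and 440 and 142 at 4-fold. List members called lower numbered 23 at 50 TPM. Chains shared were 60.2% of WT chains at 5 TPM, 94.03% in FLAIR and 42.1% in cDNA. Genes with a moved leading chain numbered 175 at 50 TPM, 768 with partial chains joined and 102 in cDNA, and 127 chains moved in the native direction in the ladder libraries by limma. Splice sites moved numbered 240 at 40 points and 137 at 50 TPM. The 3′ ends further and shorter in KO numbered 189 and 260 at 10 TPM, 197 and 350 at 500 bases and 1399 and 1637 in cDNA. With exon overlap Elavl4 (log2 difference 0.089) and Igf2r (0.31) reversed. Fewer features enter the stricter settings, and otherwise the cause was not tested.

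With the ladder replicate number as a replicate block, edgeR called 4925 genes higher and 5025 lower, and 1229 native calls had the same and 289 the opposite direction. Same-numbered libraries correlated at -0.0098, 0.054, -0.023 and 0.045, and none correlated best with its own number. Under the block Mettl3 and Lrrn1 had edgeR adjusted p of 0.053 and 0.052. Leaving out 1 ladder library gave 4450 to 4852 higher and 4516 to 5107 lower genes, 1146 to 1238 calls in the same and 245 to 275 in the opposite direction, and 0 chain shares past the exact test.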
